A study of Saccharomyces cerevisiae with 9 samples.

Results

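The 10 genes described here encode the enzymes with which *Saccharomyces cerevisiae* turns sulfate into methionine and *S*-adenosylmethionine. They were taken by name: *MET3* (YJR010W), *MET14* (YKL001C), *MET16* (YPR167C), *MET5* (YJR137C), *MET10* (YFR030W), *MET2* (YNL277W), *MET17* (YLR303W), *MET6* (YER091C), *SAM1* (YLR180W) and *SAM2* (YDR502C). These are 10 of the 7127 genes in the count files, and all 10 passed the filter on low counts in every comparison. The mRNA-seq data hold 9 libraries, 3 biological replicates (A, B and C) each of early log, mid log and late log phase. All were made from a single strain, called wild type by the submitters, a *MATa* strain with the alleles *ade2-1*, *ura3-1* and *trp1-1*, with *his3-11* and *can1-100*, and with a mutant allele of *LEU2*. Its RNA polymerase I subunit gene *RPA135* carries an HA and a His tag, marked with *TRP1*. No allele of a methionine gene is listed. Cells were grown at 30 °C in YPD, a rich medium whose yeast extract and peptone supply amino acids, to an OD600 of 0.2 to 0.3, 0.5 to 0.7 or 0.8 to 1.0. The labels separate the 3 groups by log subphase alone. The densities come from the study's methods, by which the sequencing run also differed between groups. The comparison asks how the transcript levels of the pathway changed along log phase.

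The pathway starts with sulfate in the cytosol. ATP sulfurylase (Met3) and adenylyl-sulfate kinase (Met14) activate it, phosphoadenylyl-sulfate reductase (Met16) reduces it to sulfite with electrons from thioredoxin, and sulfite reductase, built of the Met5 and Met10 subunits, carries it to sulfide. Met17 joins the sulfide to *O*-acetylhomoserine, the product of Met2, giving homocysteine. Met6 methylates homocysteine to methionine, and Sam1 and Sam2, a pair of similar enzymes, make *S*-adenosylmethionine, the methyl donor of the cell, from methionine. In yeast these genes are known as the targets of the activator Met4, which is brought to promoters by Cbf1 or by Met31 and Met32, and which the ubiquitin ligase subunit Met30 restrains when methionine is plentiful. The activator Gcn4 acts on many genes of amino acid synthesis.

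The gene counts summed to between 22830165 and 34358259 reads in a library. In early log the 10 most abundant genes made up 10.01% to 15.7% of them, in mid log 20.1% to 26.2% and in late log 18.2% to 19.1%. Levels are given as CPM (edgeR's counts-per-million measure) on library sizes scaled by TMM over the 9 libraries, a scaling that takes most genes as unchanged. Early log C and mid log A stood apart from their own groups: the chi-square of counts per degree of freedom against the other 2 libraries was 435 to 488 for early log C and 630 to 662 for mid log A, against 8.65 to 37.1 for the remaining pairs within a subphase. By the study's methods, sequencing run 1 held early log A and B, run 2 all of mid log, and run 3 all of late log together with early log C. Mid log and its run can therefore not be told apart. Of the a-cell genes, *MFA1*, *MFA2*, *STE2*, *STE6* and *BAR1* were all present at 19.6 to 993 CPM, while the alpha-cell genes *MF(ALPHA)1*, *MF(ALPHA)2* and *STE3* stayed at or below 3.03 CPM, and *SAG1* was at 16.3 to 27.7 CPM.

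The upstream sequences of the 10 genes were read first, since the activators named above recognise known short motifs. The 500 bases before each start codon were searched on both strands for CACGTG (the Cbf1 motif), CTGTGG (the core of the Met31 and Met32 motif) and TGACTC (the Gcn4 motif). Matches that share bases would each have been counted, and none of those upstream of the 10 genes did. CACGTG was found upstream of 9 of the 10 genes, all but *SAM1*, against 6.23% of 6000 promoter windows of the same length. CTGTGG was found upstream of *MET3*, *MET10*, *MET17*, *MET6*, *SAM1* and *SAM2*, against 13.2% of the windows. TGACTC was found upstream of *MET16*, *MET5* and *MET6*, against 12.7%. Both CACGTG and CTGTGG stood in 5 of the 10 windows and in 0.917% of all windows. A match describes the letters in the window and does not show that a factor binds there.

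The windows printed here are examples of the different patterns: *MET10*, *MET17* and *SAM2* with CACGTG and CTGTGG close together, *MET3* with the same motifs further apart and so in 2 windows, *SAM1* with CTGTGG only, *MET16* and *MET5* with CACGTG but no CTGTGG, and *MET2* with a lone CACGTG. Those of *MET14*, which held a lone CACGTG as *MET2* did, and of *MET6*, where CACGTG and CTGTGG began 191 bases apart, are left out. The printed windows follow. They are given 5′ to 3′ on the strand of the gene, from the RefSeq R64 genome, with the motif matches in capitals and CTGTGG appearing as CCACAG where it lies on the other strand. The positions are chrX:455854-455892 and chrX:455978-455999 for *MET3*, chrVI:213055-213113 for *MET10*, chrXII:732234-732281 for *MET17*, chrIV:1454748-1454795 (minus strand) for *SAM2*, chrXII:514980-515001 for *SAM1*, chrXVI:877767-877818 (minus strand) for *MET16*, chrX:683576-683626 (minus strand) for *MET5* and chrXIV:116988-117009 for *MET2*.
MET3: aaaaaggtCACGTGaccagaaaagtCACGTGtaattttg
MET3, nearer the start codon: taacaaagCCACAGttttacaa
MET10: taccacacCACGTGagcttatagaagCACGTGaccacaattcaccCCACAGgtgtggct
MET17: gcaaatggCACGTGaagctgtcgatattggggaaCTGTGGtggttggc
SAM2: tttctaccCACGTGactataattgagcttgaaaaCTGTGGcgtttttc
SAM1: caggaaaaCTGTGGtggcgccc
MET16: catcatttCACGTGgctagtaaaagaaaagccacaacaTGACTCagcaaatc
MET5: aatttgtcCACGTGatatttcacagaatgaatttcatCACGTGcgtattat
MET2: cgtattttCACGTGatgcgcct

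In *MET17* and *SAM2* the first base of CACGTG lay 26 bases before the first base of CTGTGG. *MET3*, *MET5* and *MET10* each held 2 copies of CACGTG. The map of motif matches shows all of them by their distance from the start codon.

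**Figure D1:**
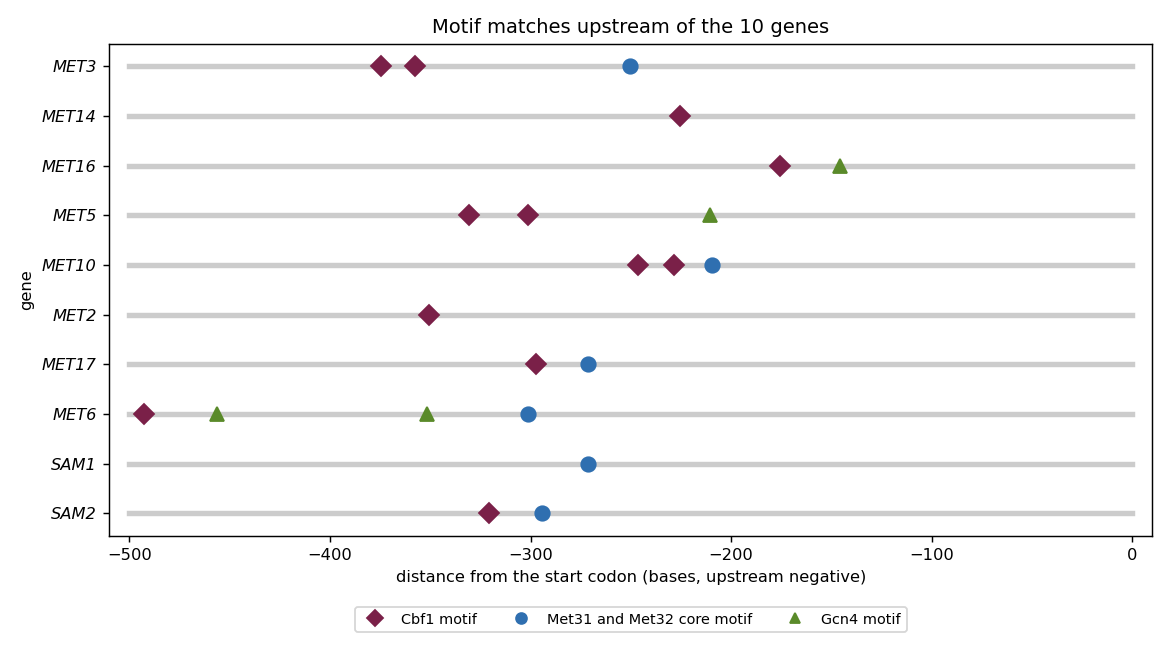
Matches to 3 motifs in the 500 bases upstream of each gene, drawn to scale by distance from the start codon (x axis, bases; 1 grey line per gene). The Cbf1 motif is missing only from the *SAM1* window, and the Gcn4 motif is present in *MET16*, *MET5* and *MET6*.

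Most of the pathway was lowest in early log. Between early and mid log *MET17*, *MET6*, *SAM1*, *SAM2*, *MET3* and *MET5* rose, by log2 fold changes of 1.36 to 2.61, where 20.7% of all genes tested rose and 24.2% fell. Between early and late log 8 of the 10 genes rose, *MET16* fell, and *MET2* did not pass the test, where 33% of all genes rose and 39.2% fell. Between mid and late log none of the 10 passed, and 0.46% of all genes did. The test was edgeR's quasi-likelihood test on the 6 libraries of the subphases compared, with Benjamini-Hochberg adjustment over all genes and a threshold of 0.05. Every library is a bulk sample, so that a smaller share of expressing cells and less RNA per cell cannot be told apart.

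**Figure D2:**
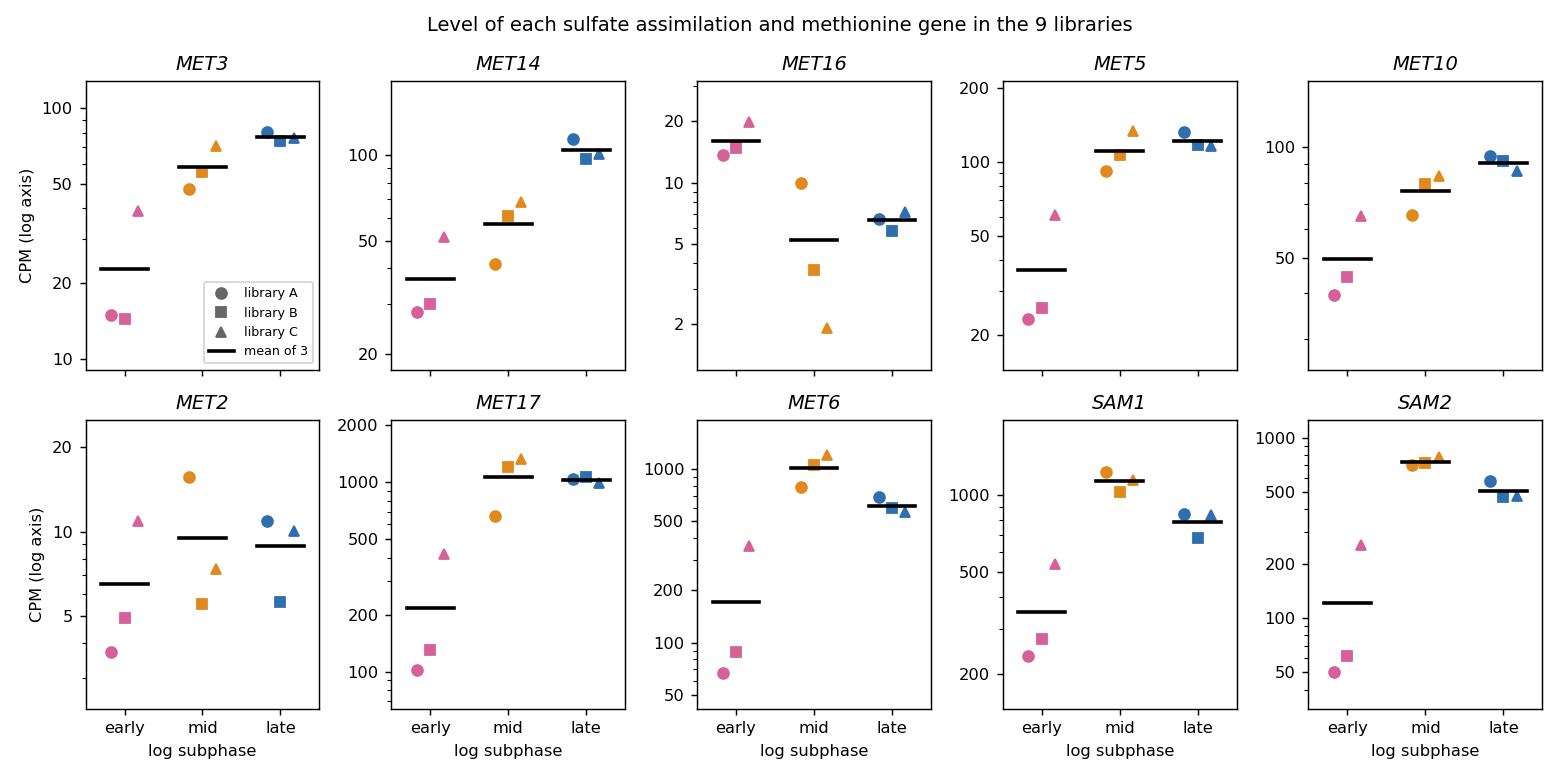
CPM of each gene (y axis, log scale) in the 9 libraries by log subphase (x axis); symbols mark libraries A, B and C and bars the mean of 3. In 10 of 10 genes early log C lies above early log A and B, and *MET16* alone has all its early log libraries above all the others.

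The 2 activation enzymes come first in the pathway. *MET3*, the gene of ATP sulfurylase (chrX:456239-457774), stood at 14.9, 14.4 and 39.0 CPM in early log A, B and C, at 47.8, 55.9 and 70.5 in mid log and at 80.3, 73.9 and 76.3 in late log. The 3 subphases did not overlap, and early log C lay nearest to mid log. *MET3* rose by 1.36 ± 0.44 (log2 fold change ± SE, edgeR adjusted p = 0.0418) from early to mid log and by 1.69 ± 0.39 (adjusted p = 0.00601) from early to late log. *MET14*, the adenylyl-sulfate kinase gene (chrXI:438777-439385), stood at 28.1, 30.0 and 51.8 CPM in early log, at 41.6, 61.4 and 68.3 in mid log and at 114, 97.4 and 101 in late log. Its mid log libraries overlapped those of early log, because mid log A lay below early log C, while all late log libraries were above all others. *MET14* changed by 0.66 ± 0.34 between early and mid log, which did not pass (adjusted p = 0.145), and rose by 1.45 ± 0.25 from early to late log (adjusted p = 0.00145).

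*MET16* ran against the rest. The gene of phosphoadenylyl-sulfate reductase (chrXVI:876847-877632), the next step after Met14, had 13.7, 14.8 and 19.8 CPM in early log A, B and C, 9.99, 3.69 and 1.91 CPM in mid log and 6.60, 5.78 and 7.17 CPM in late log. As reads these were 522, 519 and 767 in early log, 346, 75 and 39 in mid log and 141, 119 and 179 in late log, so the lowest values rest on few reads. All early log libraries were above all mid log and all late log libraries. Mid log A was far above mid log B and C, and the SD of mid log was 81.7% of its mean. *MET16* fell by 1.36 ± 0.20 on the log2 scale from early to late log in edgeR's test (adjusted p = 0.000706). Between early and mid log its log2 fold change was -1.61 ± 0.59, which missed the threshold (adjusted p = 0.0579). Without mid log A the same comparison gave -2.49 (adjusted p = 0.00157).

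The subunit genes of sulfite reductase moved in the direction opposite to *MET16*. *MET5* (chrX:678957-683285), for the beta subunit, had 23.1, 25.6 and 61.0 CPM in early log, 91.8, 107 and 133 in mid log and 133, 118 and 116 in late log. Mid and late log overlapped and both were above early log. *MET5* rose by 1.61 ± 0.42 from early to mid log (edgeR adjusted p = 0.0217) and by 1.68 ± 0.37 from early to late log (adjusted p = 0.00496). *MET10* (chrVI:213312-216419), for the alpha subunit, had 39.7, 44.3 and 65.1 CPM in early log, 65.5, 79.2 and 83.6 in mid log and 94.4, 91.6 and 85.8 in late log. The 3 subphases did not overlap, though early log C and mid log A were nearly level. *MET10* had the smallest range of the 10 genes, with 2.38-fold between its lowest and highest library, and rose by 0.81 ± 0.19 from early to late log (adjusted p = 0.00733) but not by the test from early to mid log (0.63 ± 0.27, adjusted p = 0.0907).

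*MET2* and *MET17* act on the carbon skeleton and on its union with sulfide. *MET2*, the homoserine *O*-acetyltransferase gene (chrXIV:117349-118809), had 3.74, 4.91 and 10.9 CPM in early log, 15.6, 5.51 and 7.36 CPM in mid log and 10.9, 5.63 and 10.1 CPM in late log. Its subphases overlapped throughout, and no comparison passed. From early to late log its log2 fold change was 0.38 ± 0.44 (edgeR adjusted p = 0.459), and without early log C it was 0.98 (adjusted p = 0.00644). *MET17*, the *O*-acetylhomoserine sulfhydrylase gene (chrXII:732542-733876), had 102, 130 and 420 CPM in early log, 660, 1201 and 1332 in mid log and 1046, 1062 and 986 in late log. It rose by 2.31 ± 0.60 from early to mid log (adjusted p = 0.0215) and by 2.19 ± 0.52 from early to late log (adjusted p = 0.00716). *MET17* overlaps YLR302C on the opposite strand by 12 bases, and that gene held 0 to 4 reads per library.

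The methionine synthase and *S*-adenosylmethionine synthetase genes had their highest levels in mid log. *MET6* (chrV:339864-342167) had 66.4, 88.7 and 360 CPM in early log, 794, 1057 and 1202 in mid log and 688, 594 and 569 in late log. It had the widest range of the 10 genes, 18.1-fold between early log A and mid log C. *MET6* rose by 2.58 ± 0.66 from early to mid log (edgeR adjusted p = 0.0210) and by 1.79 ± 0.61 from early to late log (adjusted p = 0.0320). *SAM1* (chrXII:515262-516410) had 235, 274 and 538 CPM in early log, 1227, 1031 and 1149 in mid log and 842, 679 and 837 in late log. *SAM2* (chrIV:1453310-1454464) had 50.1, 61.3 and 253 CPM in early log, 700, 724 and 781 in mid log and 578, 466 and 473 in late log. For all 3 genes every mid log library was above every late log library, and every late log library above every early log library. *SAM1* rose by 1.71 ± 0.35 from early to mid log (adjusted p = 0.0143) and by 1.11 ± 0.31 from early to late log (adjusted p = 0.0145), and *SAM2* by 2.61 ± 0.63 (adjusted p = 0.0185) and 2.00 ± 0.61 (adjusted p = 0.0199). The *SAM1* and *SAM2* coding sequences are 83.6% identical over 1141 aligned bases, with 59 bases as their longest identical run, and reads that matched more than 1 place were set aside by the counting, so the split of reads between them is uncertain.

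The comparison of mid with early log asks which genes had changed by the middle of log phase. *SAM2*, *MET6* and *MET17* ranked 20, 22 and 44 from the top of 5951 genes by log2 fold change. *SAM1*, *MET5* and *MET3* ranked 206, 293 and 528, *MET14*, *MET10* and *MET2* 1700, 1756 and 1885, and *MET16* 4828. In all, 6 of the 10 genes were higher by edgeR's test and 0 lower, where 44.9% of all genes tested were called, 20.7% higher and 24.2% lower. Without the adjustment 7 had a p below the threshold, against 55.2% of all genes. The 7 genes whose mid log libraries were all above all early log libraries (*MET10* beside the 6), and *MET16* as the 1 gene below, compare with 27.2% and 34.3% of all genes, 61.5% in either direction. As log2 fold change, the median of the 10 genes was 1.49 beside -0.12 over all genes. These calls were lost, together with those of all other genes, when any 1 library other than early log C and mid log A was left out. An unadjusted p below the threshold was then found in 6 to 7 of the 10 genes and in 2441 to 2476 of 5988 to 6001 genes tested. Without early log C 7 passed, where 2208 of 5991 genes did. Without mid log A 9 passed, where 4592 of 6007 did. Without both 10 passed, where 5360 of 5981 did, so these counts rose together with those of all genes. Under scaling by library totals, where the median of all genes was -0.89 and the calls over all genes were 216 higher and 2127 lower in place of 1233 and 1441, none of the 10 passed (3 had an unadjusted p below the threshold), and *MET14*, *MET10* and *MET2* turned to -0.21, -0.21 and -0.16. Measured from that median, the same 3 genes stood at 0.68, 0.68 and 0.73.

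The comparison of late with mid log asks what changed further before the end of log phase. Of the 10 genes 0 passed edgeR's test, where 0.46% of all genes did. At an unadjusted p below the threshold there were 4, *MET14*, *MET6*, *SAM1* and *SAM2*, where 19.8% of all genes were. The libraries did not overlap in 6 genes, against 28.3% of all genes. *MET3*, *MET14* and *MET10* were higher in late log, against 18.9% of all genes, and *MET6*, *SAM1* and *SAM2* lower, against 9.39%. The log2 fold change was 0.73 ± 0.25 for *MET14* (adjusted p = 0.182), -0.86 ± 0.24 for *MET6* (0.133), -0.66 ± 0.18 for *SAM1* (0.128) and -0.67 ± 0.19 for *SAM2* (0.133). The other 6 genes lay between -0.21 and 0.27, and the median of the 10 genes was -0.09 beside -0.11 over all genes. Without mid log A 6 of the 10 passed, where 3318 of the 5913 genes tested did. *MET14* and *MET16* were then higher and *MET17*, *MET6*, *SAM1* and *SAM2* lower in late log. With DESeq2's test 1 passed, *MET6*, where 366 of 5801 genes did.

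The comparison of late with early log spans the whole of log phase. Here 9 of the 10 genes passed edgeR's test, 8 higher and 1 lower, where 72.1% of all genes did, 33% higher and 39.2% lower. Without the adjustment 9 had a p below the threshold, against 74.3%. The same 8 genes had all late log libraries above all early log libraries and *MET16* all below, against 37.9% and 39.2% of all genes, 77.1% in either direction. The median of the 10 genes was 1.57 and that of all genes -0.08. In run 3 alone, which held early log C and all of late log, the mean late log level was 2.46-fold that of early log C for *MET17*, 2.01-fold for *MET14*, 2.00-fold for *MET5* and *SAM2*, 1.97-fold for *MET3*, 1.71-fold for *MET6*, 1.46-fold for *SAM1* and 1.39-fold for *MET10*. For *MET16* it was 0.330-fold and for *MET2* 0.811-fold. With 1 early log library in that run there is no test within it. When all 9 libraries were fitted with a term for the run, the late over early log value again set late log against early log C alone. The fit therefore gives effect sizes and no further test. Its log2 fold changes were 0.48 (*MET10*) to 1.30 (*MET17*) for the 8 genes, -1.60 for *MET16* and -0.30 for *MET2*. With library totals 5 of the 10 passed, 4 higher and 1 lower, without *MET10*, *MET6*, *SAM1* and *SAM2*. Of the 5954 genes tested 4130 did, 839 higher and 3291 lower. The call of *MET6* was lost without early log B or any 1 late log library (adjusted p = 0.0675 to 0.0825), and that of *SAM2* without late log A or late log B (0.0579 and 0.0519).

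**Figure D3:**
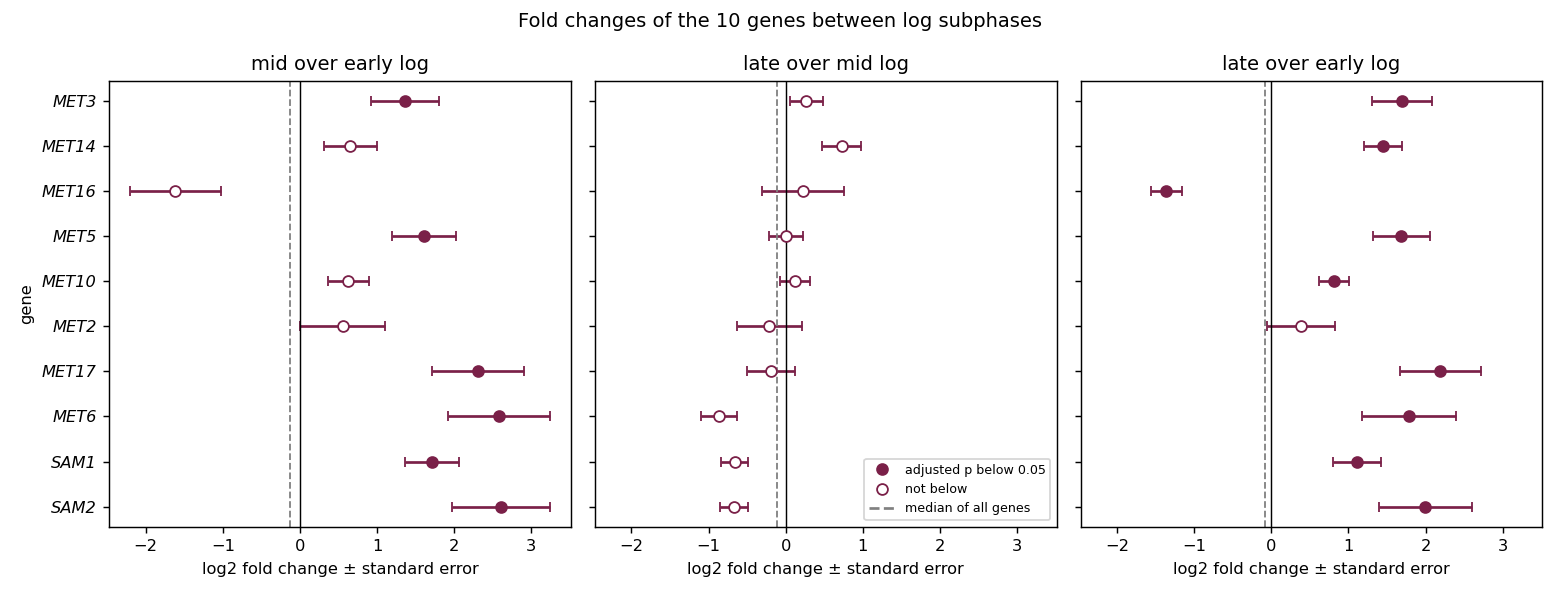
Log2 fold change of each gene (x axis, points; bars are the standard error) in the 3 comparisons, with genes past the adjusted threshold filled and the median of all genes dashed. Of the filled points only *MET16* in late over early log lies left of 0. Under scaling by library totals *MET14*, *MET10* and *MET2* lie below 0 in mid over early log, *MET17* above 0 in late over mid log, and *MET2* below 0 in late over early log.

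The spread between replicates was widest in early log for 9 of the 10 genes and narrowest in late log for 8. The exceptions were *MET16*, widest in mid log, and *SAM1* and *SAM2*, narrowest in mid log (8.71% and 5.65% of the mean, beside 11.8% and 12.3% in late log). In early log the SD was 95.2% of the mean for *MET6*, 93.9% for *SAM2* and 81.0% for *MET17*, and 19.9% for *MET16*. In late log it was 3.91% for *MET17*, 4.20% for *MET3* and 4.84% for *MET10*, and *MET2* had the widest spread with 31.9%. Early log C was above early log A and B in 10 of 10 genes, by 4.64-fold over their mean for *MET6*, 4.55-fold for *SAM2* and 3.62-fold for *MET17*, down to 1.38-fold for *MET16*. Mid log A was the lowest mid log library in 7 genes and the highest in *MET16*, *MET2* and *SAM1*. Summed, the 10 genes took 0.0792%, 0.0935% and 0.267% of the gene counts in early log A, B and C, 0.368%, 0.314% and 0.338% in mid log and 0.323%, 0.288% and 0.286% in late log. By the paper, early log C lay at the upper limit of the OD600 range of early log. Mid log A lay at the lower limit of the mid log range. Whether these harvest densities or the run of early log C have a part in the values above was not tested.

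Levels of different genes were compared as CPM per kb of coding length. In early log the order was *SAM1* (mean of 304 CPM per kb), *MET17* (163), *SAM2* (105), *MET6* (74.5), *MET14* (60.1), *MET16* (20.5), *MET10* (16.0), *MET3* (14.8), *MET5* (8.45) and *MET2* (4.47). Only *MET14* and *MET16* were neighbours in this order whose libraries did not overlap. In mid log *SAM1* (988), *MET17* (797) and *SAM2* (636) led, followed by *MET6* (442), *MET14* (93.7), *MET3* (37.8), *MET5* (25.5) and *MET10* (24.5), and *MET16* (6.61) and *MET2* (6.50) came last. In late log *MET17* (772) stood above *SAM1* (684), and the other genes were *SAM2* (438), *MET6* (268), *MET14* (171), *MET3* (50.0), *MET10* (29.2), *MET5* (28.2), *MET16* (8.29) and *MET2* (6.06). In late log only *MET10* with *MET5* and *MET16* with *MET2* overlapped among neighbours. By these means *MET16* stood above *MET3* per kb in early log and below it in mid and late log. In single libraries it was above *MET3* in early log A and B but level with it in early log C, with 25.1 against 25.4 CPM per kb, and it was below *MET3* in all 6 later libraries.

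Ratios of counts within a library do not depend on the scaling between libraries. *SAM1* had 4.69, 4.47 and 2.13 times the reads of *SAM2* in early log A, B and C, 1.75, 1.42 and 1.47 times in mid log and 1.46, 1.46 and 1.77 times in late log. The early log ratios were all above the others, and early log C was nearest to them. *MET16* had 0.489, 0.495 and 0.382 reads for each *MET14* read in early log, 0.240, 0.0601 and 0.0280 in mid log and 0.0577, 0.0593 and 0.0710 in late log. These genes encode consecutive steps, and the ratio fell below every early log value in each of the 6 later libraries. *MET5* had 0.582, 0.578 and 0.937 reads for each *MET10* read in early log, 1.40, 1.35 and 1.59 in mid log and 1.41, 1.28 and 1.35 in late log. The 2 subunit genes of sulfite reductase therefore did not keep 1 ratio, with the early log libraries all below the rest. An exact permutation of 3 libraries against 3 cannot give a p below 0.1, and no test of these ratios was made.

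**Figure D4:**
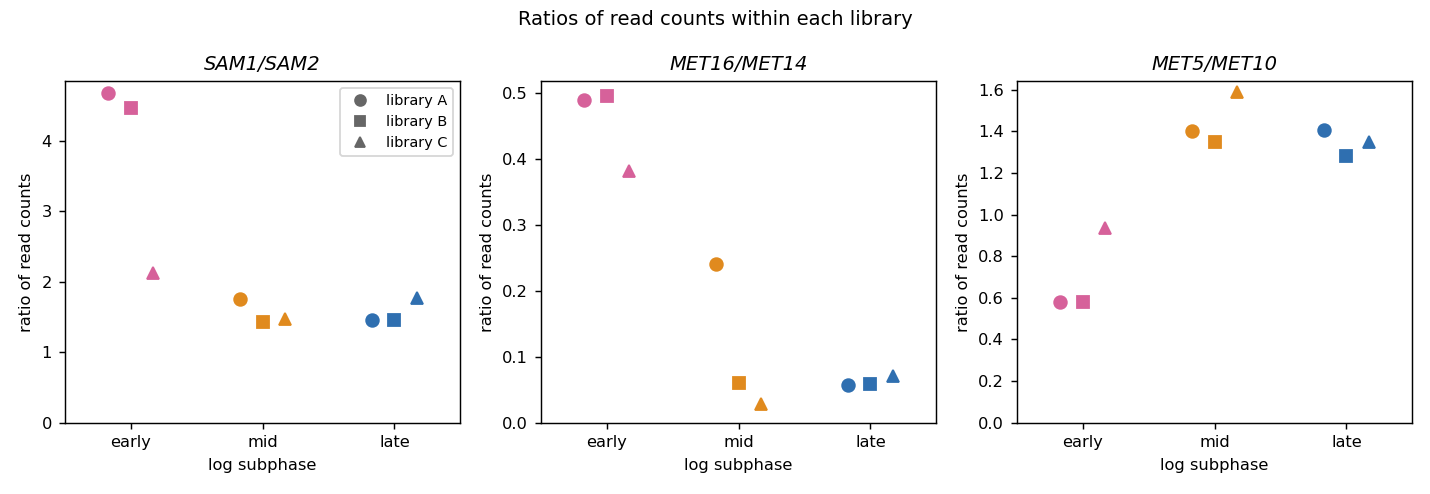
Ratio of read counts of 2 genes within each library (y axis) by log subphase (x axis) for *SAM1* over *SAM2*, *MET16* over *MET14* and *MET5* over *MET10*; each point is a library, A, B or C. Early log lies above the other subphases in the first 2 ratios and below them in the third.

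Over the 9 libraries, *MET6* and *SAM2* were the pair with the most alike log2 CPM (Pearson r = 0.995), followed by *MET5* and *MET17* (0.992), *MET3* and *MET5* (0.990) and *MET3* and *MET10* (0.986). *MET16* had negative values with 8 of the others, from -0.75 with *MET17* to -0.53 with *MET14*, and 0.05 with *MET2*. The points are 3 libraries in each of 3 subphases with shared scaling, so these values describe the libraries and have no p. Against the mean standardized log2 CPM of *MET3*, *MET14*, *MET16*, *MET5* and *MET10*, a mean that joins *MET16* with 4 genes it ran against (r of -0.70 to -0.53), the most alike of 4101 other genes were *GCV2*, a subunit of the glycine cleavage complex (r = 0.996), *MRX20* (0.988), *COX11*, a factor of cytochrome oxidase assembly (0.979), *ADE17*, an enzyme of purine synthesis (0.978), and *CAP2*, a subunit of the actin capping protein (0.977). The first gene of sulfur metabolism in that order was *MHT1*, the *S*-methylmethionine homocysteine methyltransferase gene, at rank 64 (0.947). The order depends on that mean: none of the 5 named genes was among the 5 most alike to any 1 of the genes averaged, and *MHT1* ranked 3 for *MET3* (0.989) and for *MET5* (0.992).

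Another 43 genes of sulfur and methionine metabolism were grouped by role. In mid over early log 23 of the 43 passed edgeR's test, 18 higher and 5 lower, which is 53.5% beside the 44.9% of all genes. In late over mid log 0 of the 42 tested passed, beside 0.46% of all genes. An unadjusted p below the threshold was found in 9, beside 19.8% of all genes, and 4 passed DESeq2's test, where 366 of 5801 genes did. In late over early log 30 of the 43 passed, 22 higher and 8 lower, which is 69.8% beside 72.1%. *MET32*, for an activator partner of Met4, is among the genes counted as lower. It had 18 to 29 reads in early log and 3 to 6 in each later library and passed the filter on low counts only through early log, so its fall was built into the filter. Without *MET32* 22 of 42 passed in mid over early log, 18 higher and 4 lower, and 29 of 42 in late over early log, 22 higher and 7 lower. Those 7 still hold *CBF1*, which in late over early log passed that filter only through early log as well. The medians without it were 0.74, -0.06 and 0.61. In mid over early log, when any 1 library other than early log C and mid log A was left out, 0 of the 43 passed. An unadjusted p below the threshold was then found in 21 to 25 of them and in 2441 to 2476 of 5988 to 6001 genes tested. Under library totals the split was 3 higher and 9 lower in mid over early log, where all genes gave 216 higher and 2127 lower. In late over early log it was 7 higher and 13 lower, where all genes gave 839 higher and 3291 lower. No count is given with the run as a term, since early log C alone then stood for early log. The counts by role that follow are read against the same shares of all genes, 20.7% higher and 24.2% lower in mid over early log and 33% higher and 39.2% lower in late over early log.

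The thioredoxin genes, which supply the electrons for Met16, rose in both comparisons with early log, 3 of 3, beside 20.7% and 33% of all genes. *TRX1* rose by 2.21 ± 0.11, *TRX2* by 2.63 ± 0.27 and their reductase gene *TRR1* by 1.02 ± 0.16 from early to late log (edgeR adjusted p of 3.17e-05, 0.000165 and 0.00108). *TRX2* had 63.3, 55.6 and 110 CPM in early log, 144, 287 and 285 in mid log and 474, 524 and 481 in late log. The subphases of *TRX2* did not overlap, while *MET16* was at its highest in early log.

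Of the 8 uptake genes 5 rose from early to mid log and 4 from early to late log, beside 20.7% and 33% of all genes. The methionine permease gene *MUP1* had 125, 153 and 149 CPM in early log, 222, 415 and 461 in mid log and 221, 136 and 184 in late log. Its late log libraries overlapped early log, and *MUP1* passed in mid log alone (1.38 ± 0.31, edgeR adjusted p = 0.0160). *SAM3*, the *S*-adenosylmethionine permease gene, rose by 1.72 ± 0.28 and 0.73 ± 0.12 (adjusted p = 0.0135 and 0.00102), *MMP1*, the *S*-methylmethionine permease gene, by 1.65 ± 0.44 and 0.90 ± 0.31 (0.0233 and 0.0308), and *YCT1*, the cysteine transporter gene, by 1.19 ± 0.35 and 1.18 ± 0.15 (0.0297 and 0.000366). Of the siroheme and phosphoadenosine phosphate group 1 of 3 rose in both comparisons, *MET22*, for the phosphatase that clears the by-product of the Met16 step (1.22 ± 0.25 and 0.98 ± 0.12).

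Among the 4 genes of the methyl cycle, 2 rose from early to mid log and 4 from early to late log, beside 20.7% and 33% of all genes. *SAH1*, for *S*-adenosylhomocysteine hydrolase, had 929, 958 and 1131 CPM in early log, 2335, 3522 and 3619 in mid log and 1863, 1776 and 1705 in late log. *SAH1* was highest in mid log, as *MET6*, *SAM1* and *SAM2* were, and rose by 1.66 ± 0.27 to mid log and 0.77 ± 0.13 to late log (edgeR adjusted p = 0.0135 and 0.00147). The adenosine kinase gene *ADO1* rose by 1.44 ± 0.35 and 0.90 ± 0.16, and *MHT1* and *SAM4*, for the 2 homocysteine methyltransferases, by 1.92 ± 0.58 and 0.49 ± 0.11 in late over early log. In methionine salvage 4 of 5 genes rose in both comparisons, by 0.56 (*MEU1*) to 1.69 (*MDE1*) in late over early log, with *MRI1* at 0.68 and *UTR4* at 0.93, and 1 fell in late log. Under library totals *SAM4* turned to -0.11 and *MEU1* to -0.057 (mid log) and -0.035 (late log).

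In the supply of carbon, *HOM2* and *HOM6*, for the later enzymes from aspartate to homoserine, rose from early to mid log (1.00 ± 0.27 and 1.32 ± 0.35) and to late log (0.87 ± 0.13 and 0.66 ± 0.17), 2 of 3 genes in each. Of the 5 folate genes 1 rose to mid log and 2 rose and 1 fell to late log. *SHM2*, the cytosolic serine hydroxymethyltransferase gene, rose by 1.84 ± 0.30 and 2.25 ± 0.25 (edgeR adjusted p = 0.0135 and 0.000220), its mitochondrial counterpart *SHM1* by 0.55 ± 0.18 to late log (-0.050 under library totals), and *MET7*, for folylpolyglutamate synthetase, fell by 0.79 ± 0.11 to late log. In transsulfuration *STR2*, for cystathionine gamma-synthase, which leads from cysteine towards homocysteine, fell by 1.31 ± 0.27 to mid log and by 1.20 ± 0.14 to late log (adjusted p = 0.0139 and 0.000232). *CYS3* and *CYS4*, which lead the other way, rose by 0.84 ± 0.25 and 0.69 ± 0.11 to late log. Neither of the 2 glutathione genes passed.

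Of the 5 regulator genes besides *MET32*, 0 rose and 3 fell from early to mid log, beside the 24.2% of all genes that fell. From early to late log 4 fell, *CBF1* among them, beside 39.2%. *MET30*, for the ubiquitin ligase subunit that restrains Met4, fell by 1.46 ± 0.18 from early to late log (edgeR adjusted p = 0.000320). It had 33.4, 31.8 and 44.5 CPM in early log, 56.0, 8.55 and 9.32 in mid log and 14.5, 11.8 and 15.0 in late log. Mid log A thus lay above all early log libraries, and mid over early log did not pass (-0.56 ± 0.72, edgeR adjusted p = 0.534). *MET4*, *CBF1* and *MET32* lie under the level set for named genes and were singled out after their values were seen. *MET4* had 15.4, 14.2 and 1.47 CPM in early log A, B and C, 0.895, 0.983 and 0.589 in mid log and 1.08, 1.41 and 1.24 in late log, and *CBF1* had 16.2, 16.3 and 2.42 CPM in early log, 1.18, 0.836 and 0.687 in mid log and 0.421, 0.582 and 0.841 in late log. Early log C was low for both beside early log A and B. For *MET4* it lay close to the later libraries, which reached 1.41 CPM. For *CBF1* it stayed above them, with 2.42 CPM beside at most 1.18. From early to mid log *MET4* fell by 3.64 ± 0.85 and *CBF1* fell by 3.66 ± 0.75 (edgeR adjusted p = 0.0171 and 0.0142). From early to late log *MET4* fell by 3.11 ± 0.80 (edgeR adjusted p = 0.0101). *CBF1* had 9, 12 and 21 reads in late log A, B and C. It passed the filter on low counts in that comparison only through early log, so its fall of 4.27 ± 0.77 was built into the filter. With the run as a term, which sets late log against early log C alone, the late log values were -0.24 for *MET4*, -1.96 for *CBF1* and -1.69 for *MET30*. The later values rest on few reads, 12 to 31 in *MET4* and 9 to 41 in *CBF1* per library. CACGTG was found upstream of 16 of the 43 genes (37.2%), CTGTGG of 23 (53.5%) and TGACTC of 13 (30.2%), against the 6.23%, 13.2% and 12.7% of all windows.

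**Figure D5:**
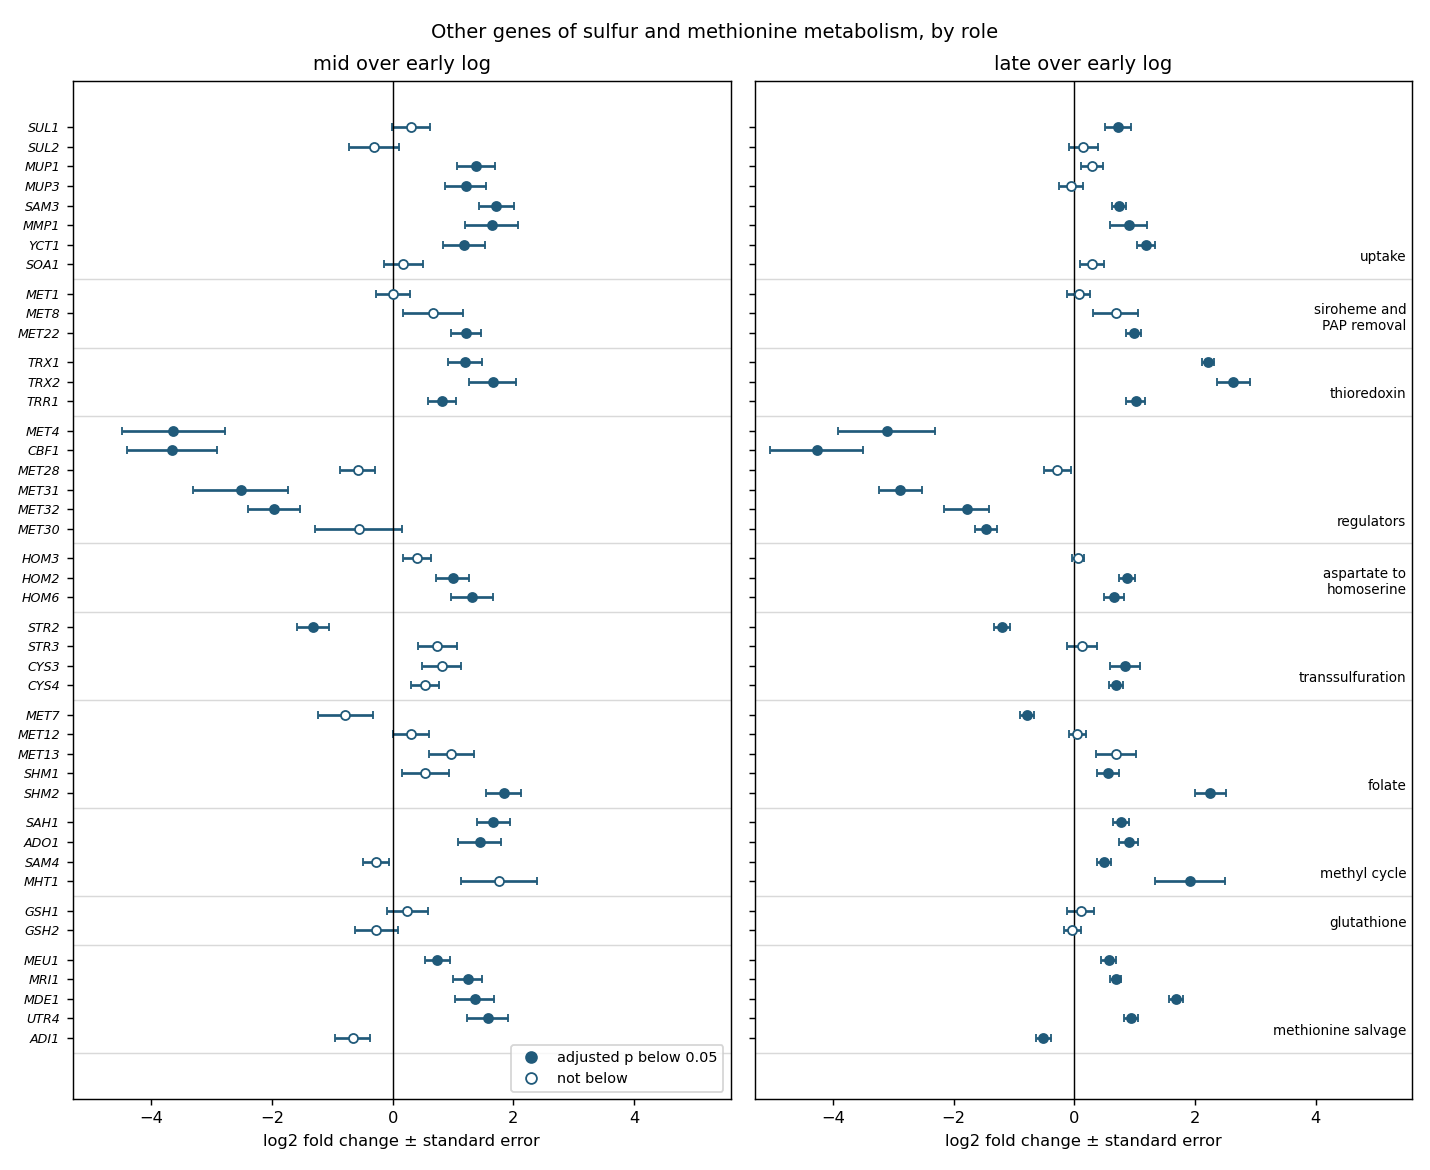
Log2 fold change (x axis, points; bars are the standard error) of 43 other genes of sulfur and methionine metabolism, grouped by role, in mid over early and late over early log, with genes past the adjusted threshold filled. The 3 thioredoxin genes lie right of 0 and the 6 regulator genes left of 0 in both panels; under scaling by library totals the filled points number 3 right and 9 left of 0 in mid over early log and 7 right and 13 left in late over early log.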

How the data were processed

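Poly(A) RNA was sequenced single-end after a directional library preparation. STAR (alignment to R64) and HTSeq (reads per gene) gave the raw counts that the authors deposited, with no normalization. The HTSeq version is 0.12.3 in the submitters' processing notes, and the study's methods give another. The strand setting is not given in the sources used here. The files list 7127 genes and 5 lines that name no gene, which were set aside (reads on no gene 6.65% to 10.7%, reads matching more than 1 place 7.46% to 11.2%). Replicates differed by more than read sampling alone, with a chi-square per degree of freedom of at least 8.65 in every pair within a subphase. How far depth limits the precision of single genes was not tested.

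The statistics were computed with edgeR 4.0.16 under R 4.3.3 (filterByExpr, TMM, quasi-likelihood test, Benjamini-Hochberg adjustment at 0.05), and with DESeq2 1.42.0 as an alternative. Standard errors were derived from the F statistic. Log2 CPM used a prior count of 2. Copies were searched with blastn 2.17.0, and figures were drawn in Python 3.11.15 with matplotlib 3.10.9. The steps were tested on simulated data. The 10 genes, the 43 other genes by role and the motifs were chosen with earlier results of these data known. All 10 genes were named, and of each role group at most 4 genes that passed in a comparison, had a mean log2 CPM of at least 3 and changed most in late over early log. The 5 genes most alike to the mean standardized profile of *MET3*, *MET14*, *MET16*, *MET5* and *MET10* were named as well. Libraries were grouped by the submitters' titles, and runs and OD600 were taken from the study's methods. The alternatives were DESeq2's size factors and test, library totals, a looser filter (none) and a stricter one (10 counts or more throughout), 1 fit of all 9 libraries, the run as a term, a replicate block, and leaving out each library. Removal of the GC trend and leaving out early log C together with mid log A were chosen after seeing the data.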

Additional observations from a re-analysis of the deposited data

How the results depend on the processing

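The limits are the harvest density and run, which mid log shares, and early log C and mid log A, which stand apart. Of the members' and other named genes' log2 fold changes, the alternatives left 469 of those in late over early log, 119 in late over mid log and 300 in mid over early log with the same direction and side of the threshold, while 64, 0 and 131 lost and 1, 9 and 15 gained the call. The late over early log numbers include the fit with the run as a term, in which early log C alone stood for early log. The cause of the changes listed next was not tested. With library totals the genes called among the 10 numbered 0 in mid over early, 2 in late over mid and 5 in late over early log, where all genes gave 2343, 453 and 4130. The 43 other genes gave 12 in mid over early and 4 in late over mid log. Under that scaling the log2 fold changes turned to -0.21 (*MET14*), -0.21 (*MET10*), -0.16 (*MET2*) and -0.057 (*MEU1*) in mid over early log, 0.16 (*MET17*) in late over mid log, and -0.23 (*MET2*), -0.050 (*SHM1*), -0.11 (*SAM4*) and -0.035 (*MEU1*) in late over early log. In late over mid log DESeq2's test called 1 of the 10, 4 of the 43 and 366 of all genes, and the fit of 9 libraries 2 of the 43 and 223 of all genes, while *MET5* turned to -0.015 with DESeq2's size factors, to -0.015 with its test and to -0.026 without the GC trend. With the run as a term late over early log gave 5 of the 10, 9 of the 43 and 1452 of all genes, with *MET2* at -0.30.

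Leaving out 1 library gave 0 to 9 of the 10, 0 to 31 of the 43 and 0 to 4592 of all genes in mid over early log, and 10, 40 and 5360 without both early log C and mid log A. In late over mid log it gave 0 to 6, 0 to 26 and 0 to 3318, with log2 fold changes of -0.16 to 1.04 for *MET16*, -0.15 to 0.19 for *MET5*, -0.018 to 0.21 for *MET10*, -0.47 to 0.29 for *MET2* and -0.47 to 0.023 for *MET17*. In late over early log it gave 7 to 10 of the 10 genes and 3828 to 4838 of all genes. Replicates with the same number did not all deviate together (r of -0.36 to 0.38 over 6014 genes), and the main test used no pairing. With early log C and mid log A standing apart, these values cannot show whether the numbers pair the libraries. With a replicate block 7, 0 and 9 of the 10 genes passed in mid over early, late over mid and late over early log, where 2648, 1 and 4210 of all genes did. The block moved the genes called in late over mid log from 27 to 1.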
